A study of Mus musculus with 59 samples.

Results

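Medial prefrontal cortex taken at zeitgeber time 2 (ZT2) was compared with the same tissue taken at ZT14, 12 h apart. The libraries were chosen by the time and sex in their titles, which gave 20 of the 59 libraries of the series, 10 at ZT2 and 10 at ZT14, each with 5 males and 5 females. All were adult wild-type C57BL/6J mice, an inbred laboratory strain, with no treatment named, and total RNA was sequenced from homogenate tissue, so that neurons, glia and vessels are mixed. In such bulk samples fewer cells of a type and less RNA per cell cannot be told apart. Zeitgeber time counts hours from lights on, and by that convention ZT2 lies early in the light phase, when mice mostly rest, and ZT14 early in the dark phase, when they are active. The labels used here do not give the light schedule, and the other 39 libraries cover ZT6, ZT10, ZT18 and ZT22.

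The circadian clock of mammalian cells is a feedback loop of transcription. BMAL1 and CLOCK bind E-box sequences and switch on the Per and Cry genes and the REV-ERB genes Nr1d1 and Nr1d2; the PER and CRY proteins then hold back BMAL1 and CLOCK, and REV-ERB and ROR proteins compete for shared elements. Most tissues carry this loop, and in the forebrain its genes are also reached by neuronal activity and by glucocorticoids, the adrenal hormones that in nocturnal animals are high around dusk. Immediate early genes such as Arc, Fos and Junb are transcribed within minutes of neuronal firing.

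The comparison found 0 genes higher at ZT2 and 9 higher at ZT14 among 4093 genes tested, the 9 being 0.22% of the genes (limma, Benjamini-Hochberg adjusted p under 0.05). Of these 9, Per1, Nr1d1 and Nr1d2 are clock genes, Arc and Junb are classical immediate early genes, and Ier5l carries the name of an immediate early response family. Tsc22d3 encodes GILZ, a protein induced by glucocorticoids. Zfp189 encodes a zinc finger transcription factor, and Utp15 a component of the small-subunit processome that processes ribosomal RNA precursors. The changes were between 1.32-fold for Utp15 and 1.94-fold for Per1. Before adjustment 160 genes (3.91%) had a p under 0.05 with higher values at ZT2 and 176 (4.3%) with higher values at ZT14, and 0 of the 160 passed the adjusted threshold in limma or in limma voom on recovered reads. Other fits did call genes higher at ZT2. When all 59 libraries shared the spread, 9 genes (0.22%) were higher at ZT2, with Cyth4, Calb2, Pdk4, Manf and Pdia6 among them, and 23 (0.562%) higher at ZT14, and with the share of noncoding reads as a covariate 2 were higher at ZT2, Calr and Cyth4, and 13 at ZT14. All 9 genes of the fit of 20 libraries were called in both.

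**Figure D1:**
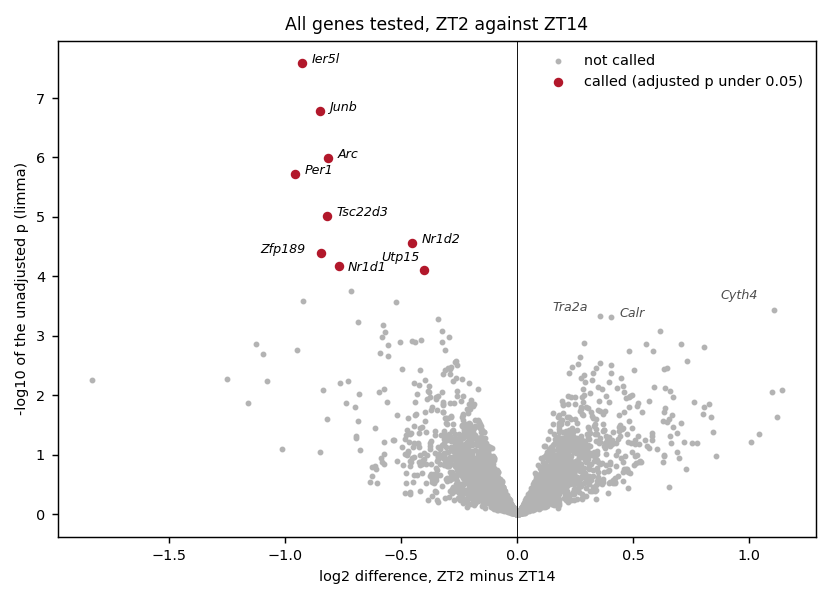
Each point is 1 of 4093 genes, with the log2 difference, ZT2 minus ZT14, on the horizontal axis and -log10 of the unadjusted limma p on the vertical axis. The 9 called genes, in red, all lie left of 0, and Cyth4, Tra2a and Calr are the labelled genes of smallest p on the right, none of them called.

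Sequences upstream of annotated starts of called genes are shown so that motifs of clock and activity-responsive factors can be seen in place. These starts need not be the ends of the gene spans given further below. Both Per1 stretches lie inside the Per1 span, and the Ier5l stretch overlaps the Ier5l span. RefSeq promoter windows (GRCm38.p6, 250 bases before to 50 after an annotated start) were matched by symbol for 8 of the 9 called genes, in 11 windows, and Arc is named only. The stretches printed are the 250 bases before the start, read 5′ to 3′ on the gene's strand, for the 4 genes with a match to a searched motif and for Junb and Ier5l, which had the smallest p and no match. Capitals mark the E-box CACGTG, the cyclic AMP response element core TGACGT, which reads ACGTCA on the opposite strand, and the ROR element core AGGTCA, which reads TGACCT there.
Per1, chr11:69098699-69098948, plus strand: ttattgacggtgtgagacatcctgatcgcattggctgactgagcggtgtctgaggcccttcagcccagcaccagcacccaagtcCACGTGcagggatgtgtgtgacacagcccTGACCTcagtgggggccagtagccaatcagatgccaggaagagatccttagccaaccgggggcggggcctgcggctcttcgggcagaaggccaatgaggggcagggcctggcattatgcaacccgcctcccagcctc
Per1, chr11:69099902-69100151, plus strand: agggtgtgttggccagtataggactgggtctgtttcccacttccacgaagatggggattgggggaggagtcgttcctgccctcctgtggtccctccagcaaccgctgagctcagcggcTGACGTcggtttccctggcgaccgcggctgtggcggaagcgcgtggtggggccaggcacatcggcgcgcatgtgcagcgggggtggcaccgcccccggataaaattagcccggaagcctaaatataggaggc
Nr1d2, chr14:18239107-18239356, minus strand: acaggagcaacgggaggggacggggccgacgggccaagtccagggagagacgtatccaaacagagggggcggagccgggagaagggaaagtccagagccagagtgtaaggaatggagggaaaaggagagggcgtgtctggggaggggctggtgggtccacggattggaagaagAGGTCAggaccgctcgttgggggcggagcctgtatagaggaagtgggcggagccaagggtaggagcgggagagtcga
Zfp189, chr4:49520926-49521175, plus strand: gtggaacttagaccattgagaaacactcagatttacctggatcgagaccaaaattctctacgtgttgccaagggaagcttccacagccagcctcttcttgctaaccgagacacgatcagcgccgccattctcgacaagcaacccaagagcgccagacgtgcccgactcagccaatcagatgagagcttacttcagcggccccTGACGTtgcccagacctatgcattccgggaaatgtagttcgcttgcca
Utp15, chr13:98262993-98263242, minus strand: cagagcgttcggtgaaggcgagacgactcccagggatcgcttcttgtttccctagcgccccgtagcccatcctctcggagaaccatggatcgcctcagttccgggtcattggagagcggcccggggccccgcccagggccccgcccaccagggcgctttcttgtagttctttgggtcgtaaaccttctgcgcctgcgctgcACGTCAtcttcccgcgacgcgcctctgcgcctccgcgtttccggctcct
Junb, chr8:84978749-84978998, minus strand: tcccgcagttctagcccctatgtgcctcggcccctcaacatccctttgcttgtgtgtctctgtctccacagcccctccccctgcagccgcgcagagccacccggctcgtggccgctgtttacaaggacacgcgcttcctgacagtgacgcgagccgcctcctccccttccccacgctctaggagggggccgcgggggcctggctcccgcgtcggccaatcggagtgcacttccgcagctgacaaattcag
Ier5l, chr2:30474200-30474449, minus strand: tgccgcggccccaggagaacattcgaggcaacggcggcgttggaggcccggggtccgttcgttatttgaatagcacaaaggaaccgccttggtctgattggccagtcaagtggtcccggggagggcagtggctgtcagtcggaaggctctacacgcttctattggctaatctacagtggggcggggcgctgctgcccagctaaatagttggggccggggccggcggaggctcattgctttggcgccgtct

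The first Per1 stretch holds the E-box, its first base 166 bases before that start, and downstream of it a ROR element core on the opposite strand. The stretch before the other Per1 start holds a cyclic AMP response element core. Nr1d2 holds a ROR element core at 77 bases before its start, Zfp189 a cyclic AMP response element core at 48 bases, and Utp15 the same core on the opposite strand at 49 bases. Searched on both strands, the E-box stood in 1 of the 11 windows of called genes (9.09%), against 9.73% of the 4051 windows of tested genes. The cyclic AMP response element core stood in 3 of the 11 (27.27%), against 12.1%, and the ROR element core in 2 (18.18%), against 11.9%. These shares were not compared by a test. Nr1d1 and Tsc22d3, which are not printed, had no match to a searched motif in any window. The full element TGACGTCA (3.01% of those windows; it contains TGACGT), the AP-1 site TGANTCA (4.54%), the Egr site GCGTGGGCG (1.51%) and the glucocorticoid response element (0.346%) were in 0 of the 11 windows. A match is a description of letters in the window, and a missing match says only that these letters are not in it.

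The reads recovered from the deposited log2 values came to between 7224286 and 13325019 per library, but 6 noncoding genes took most of them, 78.5 ± 4.81% at ZT2 and 78.1 ± 8.54% at ZT14 (SD, n = 10 each; permutation test, p = 0.903). That left between 1294859 and 4253935 reads for all other genes. On log2 CPM of all reads, with those noncoding genes in the denominator, 0 genes were called (3.35% of either sign had an unadjusted p under 0.05), and the 9 genes kept differences between -0.36 and -0.91 with adjusted p between 0.11 and 1. On the first and second principal components, which held 33.7% and 13.15% of the variance, the run 4 female at ZT2 and the run 4 and run 5 females at ZT14 lay farthest out. The labels name no batch; a run is a stretch of 12 consecutive serial numbers, every run holding 1 male and 1 female of either time, and run was a block in the fit. The titles also carry an animal number that takes only 3 values in each group of 5, so some libraries may share a mouse. Nothing in the labels says that each library is its own animal, and p-values measure the spread between libraries. The excitatory neuron marker Slc17a7, the vesicular glutamate transporter of cortical neurons, had a median log2 value of 14.82 at ZT2 and 14.83 at ZT14. The 4 tested excitatory neuron markers had differences, ZT2 minus ZT14, between -0.34 and 0.10, none of them called. No marker of endothelium, choroid plexus, blood, striatum or olfactory bulb was among the genes analysed here.

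Among the clock genes, Per1, the Period gene that responds fastest to external cues, differed most. At ZT2 its log2 value ranged from 8.78 to 10.03 with a median of 9.35, and at ZT14 from 9.77 to 11.22 with a median of 10.41. All 10 ZT2 libraries lay below the ZT14 median, 9 of the 10 ZT14 libraries lay above every ZT2 library, and the overlap came from the run 2 male at ZT14, which lay below the run 1 female and the run 4 male at ZT2. The difference, ZT2 minus ZT14, was -0.96 ± 0.14 (log2, SE; limma, adjusted p = 0.00194), a level 1.94-fold higher at ZT14. Per1 lies on chromosome 11 at 69095217 to 69109960 (GRCm38, plus strand) and had a mean of 387 recovered reads per library.

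Nr1d1 and Nr1d2 encode REV-ERBα and REV-ERBβ, the nuclear receptors that repress transcription at ROR elements. Nr1d1 ranged from 8.61 to 9.94 at ZT2 with a median of 9.29, and from 9.60 to 10.76 at ZT14 with a median of 10.10 (log2 values). The groups overlapped between the highest ZT2 and the lowest ZT14 libraries, and 7 of the 10 ZT2 libraries lay below every ZT14 library. Its difference was -0.77 ± 0.15 (limma, adjusted p = 0.0341). Of its exonic bases 8.55% are shared with Thra on the other strand, and the sources used here do not say whether counting used strand. Nr1d2 ranged from 11.22 to 12.07 at ZT2 with a median of 11.51, and from 11.58 to 12.28 at ZT14 with a median of 12.03. The run 3 male at ZT2 was high, just above the ZT14 median, while the run 4 female and both run 5 libraries at ZT14 were low. The difference of Nr1d2 was -0.45 ± 0.08 (limma, adjusted p = 0.0187), 1.37-fold higher at ZT14.

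The other 4 measured core clock genes did not pass the threshold in the fit of 20 libraries. Per2, the partner of Per1 in the repressor complex, had medians of 8.56 at ZT2 and 9.06 at ZT14 and a difference of -0.69 ± 0.17 (limma, adjusted p = 0.143), with lower values at ZT2 in all 5 runs. Per2 was called when all 59 libraries shared the spread (limma, adjusted p = 0.0182) and with the noncoding share as a covariate (adjusted p = 0.0318). Per3, the third Period gene, had a difference of -0.33 ± 0.11 (limma, adjusted p = 0.355), with lower values at ZT2 in 4 of 5 runs. Rora, which encodes the activator at ROR elements, and Hlf, a clock-controlled PAR bZIP transcription factor, had differences of -0.08 ± 0.10 and -0.03 ± 0.09, within 1 SE of 0. All 7 measured core clock genes had a negative difference, with a median of -0.45, against a median of -0.0037 over all genes tested, and 5 of the 7 had an unadjusted p under 0.05, against 4.3% of all genes in that direction. The other 13 genes of the list of 20, with Bmal1, Clock, the Cry genes and Dbp among them, were not analysed here. None of the 5 measured clock modifiers was called, and their differences ranged from -0.29 to 0.05.

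**Figure D2:**
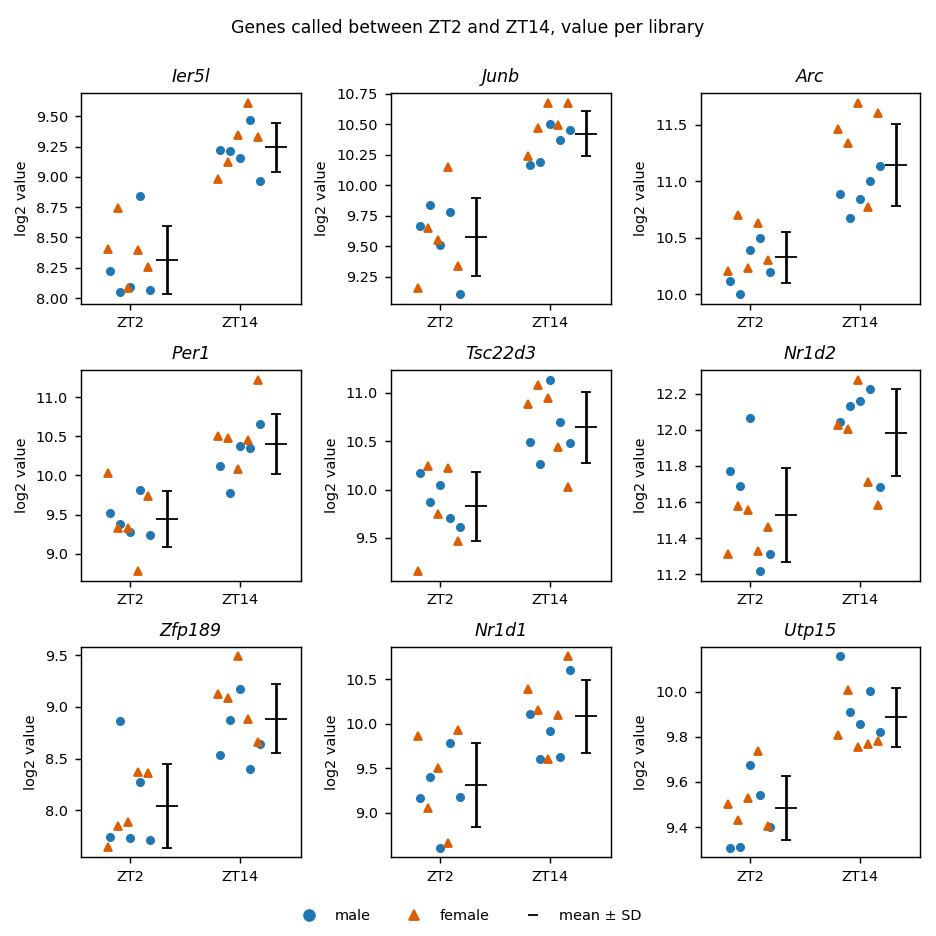
Log2 values of the 9 called genes in each library, males as circles and females as triangles, with the mean ± SD of 10 libraries beside each group. In Ier5l, Junb and Utp15 no ZT2 library reaches the lowest ZT14 library; in the other 6 genes the groups overlap, and in Nr1d2 1 ZT2 library lies above the ZT14 median.

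Ier5l had the smallest p of all genes tested. Its log2 value ranged from 8.05 to 8.84 at ZT2 with a median of 8.24, and from 8.96 to 9.61 at ZT14 with a median of 9.22. The groups did not overlap, and the highest ZT2 library was the run 4 male. The difference was -0.93 ± 0.10 (limma, adjusted p = 0.000106), 1.90-fold higher at ZT14, and it lay between -0.78 and -1.17 in the 5 runs. Ier5l lies on chromosome 2 at 30471537 to 30474219 (minus strand) and shares no exonic base with another gene.

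Junb, a subunit of the AP-1 transcription factor, ranged from 9.11 to 10.15 at ZT2 with a median of 9.60, and from 10.17 to 10.68 at ZT14 with a median of 10.46. The groups did not overlap, although the run 4 female at ZT2 came close to the lowest ZT14 library, the run 1 male. The difference was -0.85 ± 0.11 (limma, adjusted p = 0.000332). Junb shares 7.52% of its exonic bases with Prdx2 on the other strand (chromosome 8, 84974484 to 84978718).

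Groups did not overlap in 0 genes with ZT2 above and in 3 genes with ZT14 above, Ier5l, Junb and Utp15, or 0.0733% of the genes tested. Utp15 ranged from 9.31 to 9.74 at ZT2 with a median of 9.47, and from 9.75 to 10.16 at ZT14 with a median of 9.84. Its highest ZT2 library, the run 4 female, and its lowest ZT14 library, the run 3 female, lay close together, and its difference of -0.40 ± 0.08 was the smallest of the 9 (limma, adjusted p = 0.0358).

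Arc, which encodes a synaptic protein that drives removal of AMPA receptors from the membrane, ranged from 9.999 to 10.70 at ZT2 with a median of 10.27, and from 10.67 to 11.70 at ZT14 with a median of 11.07. The only overlap was between the run 2 female at ZT2 and the run 2 male at ZT14. The difference was -0.81 ± 0.12 (limma, adjusted p = 0.00139), 1.76-fold higher at ZT14. Arc lies on chromosome 15 at 74669083 to 74672570 (minus strand).

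Other immediate early genes gave mixed signs. Of the 10 tested genes on the list of AP-1, Egr and related genes, Ier5l and Junb were called, 5 had a positive and 5 a negative difference, and the median was -0.01. Fos, the AP-1 partner that is the usual marker of recent firing, had medians of 7.90 at ZT2 and 8.27 at ZT14 and a difference of -0.57 ± 0.14 (limma, adjusted p = 0.166), with lower values at ZT2 in all 5 runs. Egr1, a zinc finger immediate early gene, had a difference of 0.02 ± 0.14 (limma, adjusted p = 0.990). Jun had a difference of -0.04 ± 0.10 (limma, adjusted p = 0.942), and Fosb of 0.24 ± 0.21 (limma, adjusted p = 0.787). Srf, the serum response factor that acts upstream of many immediate early genes, had the opposite sign, with 0.33 ± 0.10 and higher values at ZT2 in all 5 runs (limma, adjusted p = 0.277).

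Of 10 tested effectors of neuronal activity, 4 differences were positive and 6 negative. Arc and Per1, which stands on 3 of the lists, were called, and the median of the list was -0.34. Gadd45b, a DNA repair and demethylation factor induced by activity, had medians of 6.34 at ZT2 and 7.41 at ZT14 and a difference of -0.93 ± 0.21 (limma, adjusted p = 0.0908). Arl4d, a small GTPase of the ARF family, had -0.95 ± 0.26 (limma, adjusted p = 0.197) and was called when all 59 libraries shared the spread. Dusp5, a phosphatase that inactivates ERK, had -0.68 ± 0.24 (limma, adjusted p = 0.367). Both Arl4d and Dusp5 had under 50 recovered reads per library, and 22.1% of the exonic bases of Dusp5 are shared with another gene. Homer1, a postsynaptic scaffold whose short form is induced by activity, and Nptx2, a pentraxin that clusters AMPA receptors, had positive differences of 0.35 ± 0.10 and 0.45 ± 0.14, with higher values at ZT2 in all 5 runs (limma, adjusted p = 0.253 and 0.308). The table holds 1 value for Homer1, so its short and long forms cannot be told apart.

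Tsc22d3 ranged from 9.16 to 10.24 at ZT2 with a median of 9.81, and from 10.02 to 11.14 at ZT14 with a median of 10.60. Of the ZT14 libraries 9 lay above every ZT2 library, and the run 5 female was the exception. The difference was -0.82 ± 0.14 (limma, adjusted p = 0.00780), 1.77-fold higher at ZT14. Tsc22d3 lies on the X chromosome at 140539528 to 140600659 (minus strand).

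Of 8 tested genes on the list of glucocorticoid-induced genes, Per1 and Tsc22d3 were called, 5 differences were negative and 3 positive, and the median was -0.22. Ddit4, an inhibitor of the mTOR pathway, had -0.56 ± 0.15 and lower values at ZT2 in all 5 runs (limma, adjusted p = 0.181). Pdk4, the kinase that switches off pyruvate dehydrogenase, had medians of 8.58 at ZT2 and 8.08 at ZT14 and a difference of 0.65 ± 0.19 with higher values at ZT2 in all 5 runs (limma, adjusted p = 0.260). Fam107a and Tgm2 had 0.31 ± 0.22 and 0.35 ± 0.26.

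Zfp189 ranged from 7.64 to 8.87 at ZT2 with a median of 7.86, and from 8.40 to 9.49 at ZT14 with a median of 8.88. Of the ZT2 libraries 9 lay below every ZT14 library, and the run 2 male was high, close to the ZT14 median. The difference was -0.85 ± 0.16 (limma, adjusted p = 0.0234), and it lay between -0.32 and -1.52 in the 5 runs. Zfp189 lies on chromosome 4 at 49521176 to 49531517 (plus strand) and had a mean of 130 recovered reads per library.

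Within each run, ZT2 libraries of the same sex mix were set against ZT14 libraries of that run. All 9 called genes were lower at ZT2 in all 5 runs, which was so for 222 of all genes tested (5.42%), and 215 genes were higher at ZT2 in all 5 (5.25%). The run values of Per1 lay between -0.54 in run 1 and -1.45 in run 5, those of Junb between -0.46 in run 4 and -1.34 in run 5, and those of Nr1d2 between -0.25 in run 5 and -0.69 in run 4. Without run 5, whose 4 libraries all lay high on the first component, 2 calls were left, Ier5l (-0.91, limma, adjusted p = 0.00672) and Junb (-0.73, adjusted p = 0.0145), while Per1 stood at -0.83 and Arc at -0.74, both with an adjusted p of 0.0535. The other 5 genes kept differences between -0.40 and -0.90 there, with adjusted p between 0.0535 and 0.349.

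Without the run 4 female at ZT2 and the run 4 and run 5 females at ZT14, all 9 genes were called again in a fit chosen after the data were seen, with 1 gene, Calr, higher at ZT2 and 15 in all higher at ZT14; Per1 stood at -0.80 and Nr1d1 at -0.68 (limma, adjusted p = 0.000226 and 0.0492). With libraries of the same animal number averaged and no block, also chosen after the data were seen, Ier5l, Junb and Arc were called. Per1 (-0.85), Tsc22d3 (-0.95) and Zfp189 (-0.93) then missed the threshold (limma, adjusted p = 0.0976, 0.0859 and 0.0859), as did Nr1d1 (-0.63), Nr1d2 (-0.54) and Utp15 (-0.38; adjusted p = 0.462, 0.188 and 0.188). Leaving out any 1 library kept the calls of Per1, Ier5l, Junb, Tsc22d3 and Arc in all 20 fits. Nr1d2 lost its call without the run 1 female at ZT14 and without the run 3 female at ZT2. Nr1d1 kept its call in 7 of 20 such fits, without the ZT2 males of runs 2 and 4, the ZT2 females of runs 1, 3 and 4, the ZT14 male of run 2 or the ZT14 female of run 3, and its adjusted p reached 0.105 in the other fits. Zfp189 kept its call in 9 of 20, losing it without the ZT2 males of runs 1, 3 and 5, the ZT2 females of runs 1, 2 and 3, the ZT14 males of runs 1, 3 and 5 or the ZT14 females of runs 1 and 3. Utp15 kept its call in 4 of 20, without the ZT2 male of run 3, the ZT14 female of run 3 or the females of run 4 at either time.

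**Figure D3:**
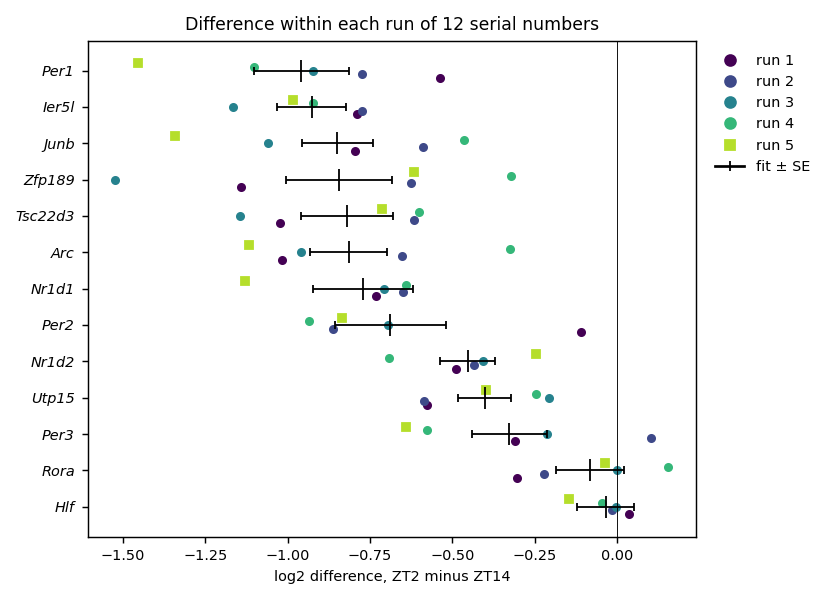
Log2 difference, ZT2 minus ZT14, of the 13 genes named by rule, within each of the 5 runs (coloured points, run 5 as squares), with the fitted difference ± SE in black. All 9 called genes and Per2 lie left of 0 in every run, whereas Per3, Rora and Hlf each have 1 run on the right.

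Males and females were also compared separately, as contrasts within a joint fit of the 20 libraries that shared the run block and the spread. Ier5l was the 1 gene called in males (0.0244% of genes), with -0.95 ± 0.15, and in females 6 genes were called (0.147%), Ier5l, Junb, Arc, Per1, Per2 and, outside the naming rule, Dzip1l, all lower at ZT2 (limma, adjusted p under 0.05). Per2 had a difference of -0.24 ± 0.20 in males (limma, adjusted p = 0.902) and -1.14 ± 0.20 in females (adjusted p = 0.0112). The females far out on the components had Per2 values of 7.97 (run 4, ZT2), 9.51 (run 4, ZT14) and 10.04 (run 5, ZT14), and the run 2 female at ZT2 had 7.44. Without the 3 libraries far out, the Per2 difference over both sexes was -0.49. Without run 5, 0 genes were called in females. The test of the difference between the sexes called 0 genes in limma and in limma voom, with 151 at an unadjusted p under 0.05 (3.69%). Per2 had the clearest difference among the 13 named genes, 0.90 ± 0.28, males minus females (unadjusted p = 0.00417, adjusted p = 0.925). Per1 had -0.81 ± 0.20 in males and -1.11 ± 0.20 in females, and the 2 values differed by 0.30 ± 0.29.

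No gene passed the threshold as higher at ZT2 in the fit of 20 libraries, and the genes given here were chosen after their values were seen, as those of smallest p or as members of the lists. Cyth4, a cytohesin that activates ARF GTPases in blood and immune cells, had the largest difference among those of smallest p, with medians of 6.87 at ZT2 and 5.95 at ZT14 and a difference of 1.11 ± 0.26 at a mean of 29.8 recovered reads (limma, adjusted p = 0.117). Itgam, the CD11b integrin of microglia and myeloid cells, had 0.62 ± 0.16 (limma, adjusted p = 0.166), but 68.7% of its exonic bases are shared with Gm49368. The 2 microglia markers of the list, P2ry12 and Tmem119, had 0.30 ± 0.11 and 0.32 ± 0.21, and their summed log2 level ranged from 9.94 to 10.66 at ZT2 and from 9.05 to 10.49 at ZT14; its part in the values of Cyth4 and Itgam was not tested.

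Genes listed with the chaperones of the endoplasmic reticulum, which fold secreted and membrane proteins, shared a sign. None of the 8 tested members was called in the fit of 20 libraries. All 8 differences were positive, against 1999 of the 4093 genes tested. Unadjusted p was under 0.05 in 4 of them, against 3.91% of all genes in that direction, and the median was 0.22. Other lists also leaned to 1 side, with 25 of 29 cytosolic ribosomal protein genes positive and all 6 glutamate receptor genes negative. Calr, the lectin chaperone calreticulin, ranged from 12.75 to 13.72 at ZT2 with a median of 13.23, and from 12.20 to 13.25 at ZT14 with a median of 12.84. The groups overlapped widely, and the difference was 0.40 ± 0.10 (limma, adjusted p = 0.130). Xbp1, the transcription factor of the unfolded protein response, had 0.24 ± 0.07, Manf, a secreted factor of that response, had 0.28 ± 0.10, and Pdia6, a disulfide isomerase, had 0.27 ± 0.09 (limma, adjusted p = 0.260, 0.367 and 0.306). Calr was called without the run 4 female at ZT2, with the noncoding share as a covariate and without the 3 libraries far out on the components. Manf and Pdia6 were called in the fit of all 59 libraries (limma, adjusted p = 0.0465 and 0.0326), where Calr was not (adjusted p = 0.139).

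**Figure D4:**
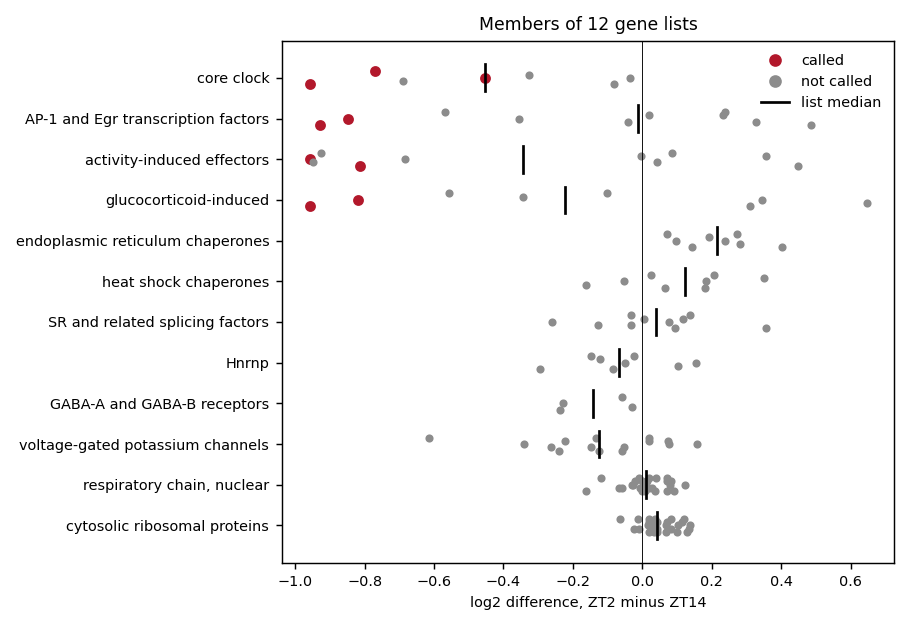
Log2 difference, ZT2 minus ZT14, of every tested member of 12 gene lists, called genes in red, with a bar at each list's median. Called genes stand in the upper 4 lists, Per1 in 3 of them, while the ribosomal and respiratory chain genes lie between -0.16 and 0.14.

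In the fit of 20 libraries, called genes stood only on the lists of core clock, AP-1 and Egr, activity effector and glucocorticoid-induced genes, and every other list held 0. Of 187 tested pathway genes 7 were called, against 0.22% of all genes tested, on lists chosen with earlier results of these data known. Stip1, a co-chaperone of HSP70 and HSP90, had the smallest p of the 8 heat shock genes, with 0.18 ± 0.08, and the list's median was 0.12. Among RNA-binding proteins, Tra2a, a splicing regulator, had 0.35 ± 0.08 (limma, adjusted p = 0.130). Rbm5 and Hnrnpdl, splicing and RNA-processing proteins, had -0.26 ± 0.08 and -0.30 ± 0.08 (limma, adjusted p = 0.260 and 0.179). Each of these genes had 1 sign in all 5 runs. Rbm5 and Hnrnpdl were called when all 59 libraries shared the spread, and Tra2a was not. The 4 GABA receptor genes were all negative, with the GABA-A subunit Gabrb2 at -0.23 ± 0.11, and the 15 potassium channel genes had a median of -0.12, with Kcnj4 at -0.24 ± 0.08 (limma, adjusted p = 0.595 and 0.309). The 29 cytosolic ribosomal proteins had a median of 0.04 and differences between -0.06 and 0.14, and the 26 nuclear respiratory chain genes a median of 0.01. No gene was called among the 10 of cholesterol synthesis, the 7 neuropeptides, the 7 monoamine, histamine and acetylcholine receptors, the 6 glutamate receptors, the 8 postsynaptic scaffold genes or the 6 MAP kinase phosphatase and feedback genes. The cold-inducible RNA-binding genes were not analysed here.

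Of 20 tested cell type markers 0 were called in the fit of 20 libraries, and 4 had an unadjusted p under 0.05 (8.21% of all genes in either direction), all higher at ZT2, among them Calb2 of interneurons (0.50 ± 0.15), C1ql1 of oligodendrocyte precursors (1.04 ± 0.49) and P2ry12. The 4 astrocyte markers had positive differences with a median of 0.26, and their summed log2 level ranged from 13.66 to 14.23 at ZT2 and from 12.60 to 14.32 at ZT14. The 4 excitatory neuron markers had a median difference of -0.04 and the 7 inhibitory ones of 0.02. The part of cell makeup in the 9 calls was not tested.

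The other pairs of times 12 h apart, ZT6 with ZT18 and ZT10 with ZT22, share no library with ZT2 and ZT14, and they show where the early light to early dark difference stands apart. In a fit of all 59 libraries the ZT2 minus ZT14 difference differed from ZT6 minus ZT18 in 27 genes (0.66%), and from ZT10 minus ZT22 in 59 genes (1.44%; limma, adjusted p under 0.05). The 2 differences had opposite signs in 25 of the 27 and in 56 of the 59 genes. These genes were selected because the 2 differences differed, which favours opposite signs, and the share over all genes tested is not given here. Without run 5 these counts were 10 and 27, and without the block 13 and 35.

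Nr1d1 differed from both other pairs. Its difference was -0.77 for ZT2 minus ZT14, 0.15 ± 0.14 for ZT6 minus ZT18 and 0.76 ± 0.15 for ZT10 minus ZT22, and the tests of the differences gave -0.92 ± 0.20 (limma, adjusted p = 0.0107) and -1.53 ± 0.21 (adjusted p = 2.36e-06). Its mean log2 value was 9.32 at ZT2, 10.15 at ZT6, 10.20 at ZT10, 10.09 at ZT14, 10.001 at ZT18 and 9.48 at ZT22, so that ZT2 was the lowest of the 6 times, with ZT22 within 1 SD of it, and the level was already high at ZT6. Per1 had means of 9.44, 9.75, 10.01, 10.40, 10.28 and 9.84 at the same times, lowest at ZT2 and highest at ZT14, with their neighbours ZT6 and ZT18 within 1 SD of them. Its difference for ZT10 minus ZT22 was 0.21 ± 0.12, and the ZT2 minus ZT14 difference was lower than it by 1.17 (SE 0.17; limma, adjusted p = 1.15e-05).

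Arc had a wider gap between ZT6 and ZT18 than between ZT2 and ZT14. ZT6 minus ZT18 was -1.84 ± 0.15, and the ZT2 minus ZT14 difference was smaller in size by 1.03 ± 0.22 (limma, adjusted p = 0.00748). Mean log2 values of Arc were 10.33, 9.63, 9.96, 11.14, 11.47 and 10.91 in the same order of times, so that ZT2 lay between the other light-phase times and the 3 dark-phase times. Junb, Tsc22d3, Nr1d2 and Utp15 differed from ZT10 minus ZT22 by -0.68 ± 0.18, -0.79 ± 0.22, -0.72 ± 0.13 and -0.59 ± 0.13 (limma, adjusted p = 0.0429, 0.0480, 0.000479 and 0.0101).

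In 15 genes the ZT2 minus ZT14 difference differed from both other pairs, and of these only Nr1d1 was called between ZT2 and ZT14 in the fit of 20 libraries. Hspa5, Manf and Pdia6 of the endoplasmic reticulum were among them. Hspa5, which encodes the chaperone BiP, had 0.19 ± 0.09 for ZT2 minus ZT14, -0.44 for ZT6 minus ZT18 and -0.54 for ZT10 minus ZT22. The tests of the differences gave 0.63 ± 0.13 and 0.73 ± 0.13 (limma, adjusted p = 0.00412 and 0.000351). Manf gave 0.58 ± 0.10 and 0.61 ± 0.10, and Pdia6 0.47 ± 0.09 and 0.69 ± 0.10 in the same tests. Homer1 and Srf were also positive for ZT2 minus ZT14 (0.35 and 0.33) and negative for both other pairs (Homer1 -0.23 and -0.29, Srf -0.29 and -0.28). All 15 genes were selected for a difference from both other pairs, which favours such opposite signs. Hnrnpdl, an RNA-binding protein, had the reverse order, with -0.30 for ZT2 minus ZT14, 0.28 for ZT6 minus ZT18 and 0.58 for ZT10 minus ZT22. Further genes of the 15 were Stk4, Schip1, Ip6k1, Znrf1, Rasl10a, Gfod1 and Sox11. Among the genes with values given here, without run 5 the difference from ZT6 minus ZT18 was called again for Arc, Hspa5, Manf, Srf and Hnrnpdl and not for Nr1d1, Pdia6 or Homer1. That from ZT10 minus ZT22 was called again for Per1, Nr1d1, Nr1d2, Hspa5, Manf, Pdia6, Srf and Hnrnpdl and not for Junb, Tsc22d3, Utp15 or Homer1. With no replicate block, Nr1d1 and Homer1 lost the call against ZT6 minus ZT18, and Junb and Tsc22d3 that against ZT10 minus ZT22.

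**Figure D5:**
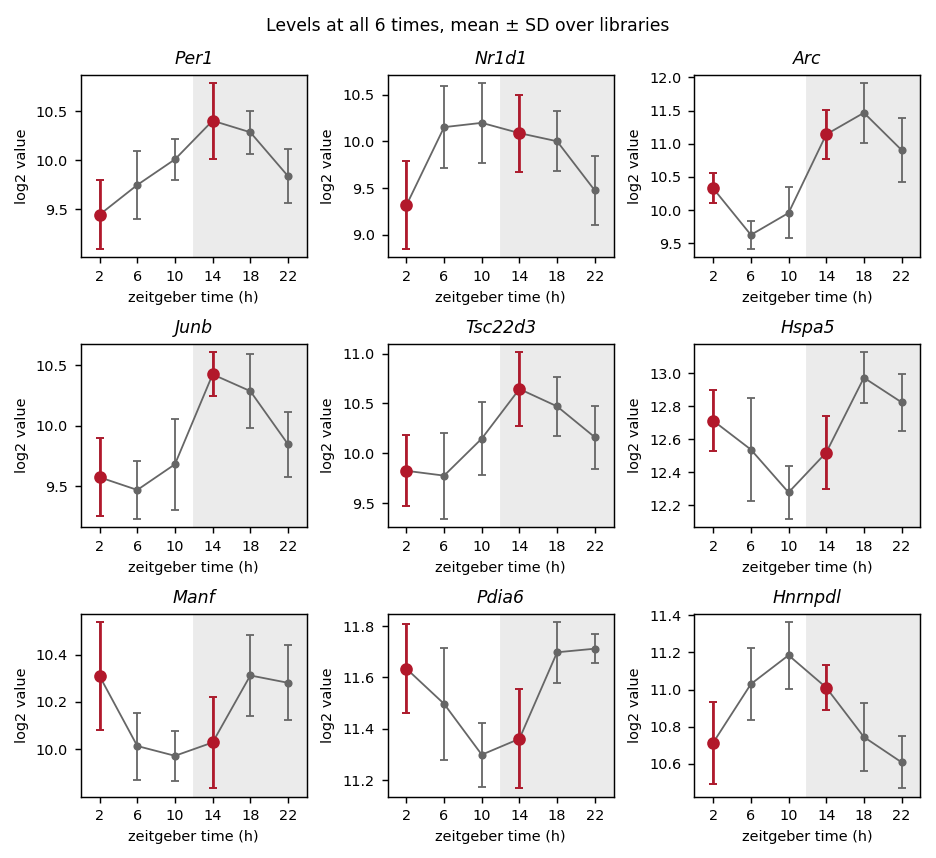
Mean log2 value ± SD over libraries at each of the 6 zeitgeber times, with ZT2 and ZT14 in red and the dark phase by the usual convention shaded. Per1 and Nr1d1 are lowest at ZT2, and the means of Hspa5, Manf and Pdia6 are higher at ZT2 than at ZT10 or ZT14; Hspa5, Manf, Pdia6 and Hnrnpdl were chosen after their values were seen.

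Over the means of the 12 groups of time by sex, the genes most like Per1 were Tsc22d3 (Pearson r = 0.873), Frmd6 (0.872) and Junb (0.859), and those most like Nr1d1 were Herc3 (0.879), Slc2a13 (0.873) and Phkg2 (0.851), given as a description, since the groups share the 5 runs. Of these 6 genes Tsc22d3 and Junb were called between ZT2 and ZT14, against 0.22% of all genes tested. The 12 groups include those of ZT2 and ZT14, so the likeness draws on the same values as the calls. Among genes just outside the threshold on the ZT14 side, Serpinb8, a protease inhibitor, had -0.72 ± 0.16, and Osbpl3, an oxysterol-binding protein, had -0.52 ± 0.12, both lower at ZT2 in all 5 runs (limma, adjusted p = 0.0737 and 0.0908); they were chosen after their values were seen. Slc2a1, the glucose transporter GLUT1 of the blood-brain barrier and astrocytes, had -0.45 ± 0.12 (limma, adjusted p = 0.179). Serpinb8, Osbpl3 and Slc2a1 were called when all 59 libraries shared the spread.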

How the data were processed

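Per the labels' protocols, Qiagen RNeasy Plus Micro columns gave the RNA and Takara's SMART Stranded kit for total RNA gave the libraries; per the submitters' processing notes, FastQC, HTSeq, DESeq2 and GRCm38 were used. The aligner, the annotation and the strand setting of the counting are not given in the sources used here. The deposited table holds log2 of a scaled count with 1 added: in each of the 20 libraries the back-transformed values were whole multiples of 1 step, within 0.0195 of a whole number, and these steps gave the recovered reads. Because the values are scaled and not raw counts, limma was used on the log2 scale where a count model had been foreseen. A fold change is on the scale of the value plus 1 and understates low genes.

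A gene was tested if 10 or more of the 20 libraries had 10 or more recovered reads of it, which held for 4093 of 4484 genes, and 4465 of the 4484 had a symbol in GENCODE M21. limma 3.58.1 in R 4.3.3 was fitted with an intensity trend and a robust spread, with sex and run of 12 serial numbers (5 levels) as covariates and Benjamini-Hochberg adjustment over all genes tested (threshold 0.05). A model of group means of time by sex, with run as block, gave the tests within and between the sexes over the 20 libraries. Over 59 libraries that model, with 12 groups, compared pairs of times. The steps were tested on simulated data. Libraries of the same run in other groups deviated together weakly (mean correlation 0.178 over 30 pairs, from -0.245 to 0.655). Pairs of different runs had a mean correlation of -0.0449 (120 pairs), and 8 of the 20 libraries correlated best with their own run. These values cannot decide whether run numbers mark matched animals. Run is a block because the comparison was defined with it. No 2 libraries of a group were copies, as reads of paired libraries differed with a chi-square of at least 12.9 per degree of freedom (40 pairs).

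The genes named by rule were every measured core clock gene, the 10 called genes of largest difference in each direction with at least 50 reads on average, and up to 4 called members of every other list, predicted genes passed over, 13 in all. The comparison, the 20 pathway lists with 550 genes and the 12 marker lists were chosen with earlier results of these data known. Alternatives tried were the block, the libraries in the fit, scaling, pseudocount, filter, voom, the robust option, the share of noncoding reads as a covariate and averaging by animal number. Some genes are not reported here.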

Additional observations from a re-analysis of the deposited data

Results flagged for a closer look

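In 8 cases a named gene's ZT2 minus ZT14 difference differed by test from that of another pair of times 12 h apart (limma on all 59 libraries, adjusted p under 0.05). Against ZT10 minus ZT22, the ZT2 minus ZT14 difference was shifted by -1.17 for Per1, -1.53 for Nr1d1, -0.72 for Nr1d2, -0.68 for Junb, -0.79 for Tsc22d3 and -0.59 for Utp15 on the log2 scale. Against ZT6 minus ZT18, it was shifted by -0.92 for Nr1d1 and by 1.03 for Arc. For the 13 genes named by rule, the noncoding share and the reads of all other genes, the gap test for small groups set no library apart from the other libraries of its time (30 sets of 10 libraries). Such a test can miss 2 libraries that lie out together. The run 4 and run 5 females at ZT14 had noncoding shares of 65.6% and 61.4%, and the next lowest at ZT14 was 75.6%. The components were not tested this way.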

How the results depend on the processing

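The 0 genes higher at ZT2 and 9 higher at ZT14 became 9 and 23 when all 59 libraries shared the spread, 0 and 2 without run 5, and 2 and 13 with the noncoding share as a covariate. They became 0 and 0 on log2 CPM of all reads in the table, where the 9 genes kept negative differences; noncoding genes enter that denominator. With averaging by animal number they were 0 and 3, and without the 3 libraries far out 1 and 15, both chosen after seeing the data. On log2 CPM without the top noncoding genes 7 genes were higher at ZT14, Nr1d1 and Utp15 leaving (limma, adjusted p = 0.0631 and 0.0632). With no replicate block 8 genes were higher at ZT14, Serpinb8 entering and Nr1d1 and Nr1d2 leaving. Without 1 library the counts ran from 0 to 1 and from 5 to 11, lowest at ZT14 without the run 1 female at ZT14. The 1 gene called in males became 0 with no replicate block, without run 5 and in voom, and 0 to 2 without 1 library; the 6 in females became 0 without run 5 and 0 to 8 without 1 library; the sexes differed in 0 genes throughout. The 27 genes that differed from ZT6 minus ZT18 became 13 with no replicate block and 10 without run 5, and the 59 against ZT10 minus ZT22 became 35 and 27. The noncoding share differed by 0.389 percentage points, and by -0.686 without run 5. Hlf, near 0, ranged from -0.0788 to 0.0057 without 1 library, changing sign to 0.0028, 0.0057 and 0.0019 without the run 2 female at ZT2, the run 2 female at ZT14 and the run 4 female at ZT2, to 0.0097 on log2 CPM of all reads, to 0.0171 with averaging and to 0.0171 without the 3 libraries. Of all alternatives for named genes 366 left direction and call as they were, 68 ended a call, 2 gave one, both to Per2, and 6 changed the sign. Where no cause is named, the cause was not tested. At under 50 reads a gene (Gadd45b, Arl4d, Cyth4) the spread between libraries limits what can be seen.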
